A study of Mus musculus with 63 samples.

Results

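miR-147 was followed through kidney injury and repair in 4 sorted mouse kidney cell populations. Its 2 members were the mature arms mmu-miR-147-3p and mmu-miR-147-5p, taken by name from a table of 2110 counted miRNA loci that carry 1966 mature names. They were chosen by the level of miR-147-3p in these counts, which was higher after obstruction than in sham ECs and Macs, so that its levels after injury are given as a description with no test. The data were small RNA sequencing (sRNA-Seq) counts from 63 libraries of 16 male C57BL/6 mice aged 8 to 12 weeks, with no transgene or allele in any group. Sham-operated mice were compared with mice culled 2 days (UUO-2) or 7 days (UUO-7) after unilateral ureteric obstruction, and with mice in which the ureter was reimplanted after 7 days of obstruction and the kidney left to repair for 14 days (R-UUO). From each kidney, CD31+ endothelial cells (ECs), F4/80hi macrophages (Macs), LTL+ proximal tubular cells (PT cells) and PDGFR-β+ stromal cells were sorted, with 4 libraries per cell type and condition and 3 for PDGFR-β+ cells at UUO-7. Each replicate of a group was a separate mouse. From the sample titles, the same replicate number in different cell types of a condition was taken as the same mouse.

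A miRNA is cut from a hairpin precursor, and usually one arm is retained to guide silencing of messenger RNAs through its seed near the 5′ end while the other arm is discarded. miR-147 is known as an inflammation-induced miRNA of macrophages. Toll-like receptor stimulation raises it, and it dampens cytokine production by the stimulated cell. In mouse its hairpin lies in AA467197, also called Nmes1, a gene that is itself induced in inflammation and encodes a small mitochondrial protein.

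In GRCm38 coordinates the 3p arm was counted at chr2:122640850-122640871 and the 5p arm at chr2:122640814-122640837. By the GENCODE annotation of that build both arms lie on the plus strand in the gene Mir147, which spans chr2:122640803-122640881. The hairpin is exonic. It falls in the last exon of AA467197, exon 5 of one coding transcript and exon 4 of the other, and in the 3′ UTR of both. No other counted locus lay within 100 kb, none overlapped the 3p locus and none had the same counts as it in every library. The RefSeq table for GRCm38.p6 held mature sequences for 10 of the 12 names made up of both arms and the 10 inflammation-induced miRNAs described later. The names without one were miR-147-3p and miR-187-3p. The 5p arm and the miRNAs of the list that are described most are printed 5′ to 3′ with the seed, bases 2 to 8, in capitals, so that shared seeds can be read off. miR-146a-5p and miR-146b-5p share one seed, and miR-132-3p and miR-212-3p share another.
miR-147-5p: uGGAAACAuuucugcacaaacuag
miR-155-5p: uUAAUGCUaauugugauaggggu
miR-21a-5p: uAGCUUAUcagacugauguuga
miR-21a-3p: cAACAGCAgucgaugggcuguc
miR-146a-5p: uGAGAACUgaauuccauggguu
miR-146b-5p: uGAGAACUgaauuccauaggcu
miR-132-3p: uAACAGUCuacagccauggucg
miR-212-3p: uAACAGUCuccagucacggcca
The search for a shared seed covered the 5p arm. No other of 1679 mature sequences shared bases 2 to 8 of miR-147-5p. miR-8107 shared bases 2 to 7 and had at most 3 counts in any library.

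Library totals ran from 616565 to 10819385 counts, and the lowest were in PT cells. The summed level of the endothelial markers miR-126a-3p and miR-126a-5p was 93085 to 173165 CPM, counts scaled to the size of the library, in ECs and at most 3523 in other cell types. The 4 leukocyte markers, both arms of miR-142a and of miR-223, summed to 14846 to 42060 CPM in Macs and to at most 699.9 elsewhere. The tubular markers miR-192-5p and miR-194-5p summed to 16089 to 130226 CPM in PT cells and to at most 5213 elsewhere. The stromal markers, from the miR-199a, miR-214 and miR-143 hairpins, summed to 91594 to 399598 CPM in PDGFR-β+ cells, but they reached 45773 in R-UUO ECs and 25076 in PT cells. The latter was R-UUO replicate 1, in which the stromal markers exceeded the tubular markers at 16089, and which had 0 counts of miR-147-3p. These sums were on CPM scaled by trimmed mean of M values (TMM) over all libraries. In sorted bulk RNA, fewer cells of a type and less RNA per cell cannot be told apart.

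In Macs, miR-147-3p was present in every sham library, was highest at UUO-2, was lower again at UUO-7 and stood between those levels after reversal. Levels here are CPM scaled by TMM within a cell type. The sham Macs had 5.24, 6.09, 6.21 and 3.11 CPM from 31, 13, 17 and 12 counts. At UUO-2 they had 95.8, 118.9, 119 and 145 CPM from 432, 490, 613 and 441 counts. No UUO-2 library came near the sham libraries, and the median rank of miR-147-3p among all loci by count went from 331.5 to 150. At UUO-7 the values were 21.4, 21.5, 23.1 and 21.7 CPM, a mean of 21.9 ± 0.803 (SD, n = 4). This was the narrowest group of the 4, and all of its libraries lay above every sham and below every UUO-2 library. After reversal the values spread out again, to 62.9, 56.2, 24.9 and 40.8 CPM with a mean of 46.2 ± 16.9 (SD, n = 4). All 4 R-UUO libraries were still above every UUO-7 library.

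As log2 differences with their standard errors, Macs were higher than sham by 4.55 ± 0.29 at UUO-2, by 2.10 ± 0.29 at UUO-7 and by 3.19 ± 0.28 at R-UUO. R-UUO was higher than UUO-7 by 1.09 ± 0.25. These comparisons share the sham or the UUO-7 libraries. Groups did not overlap in any of them, and the share of the 457 loci tested in Macs that were higher without overlap was 23.2% at UUO-2, 27.8% at UUO-7, 18.8% for R-UUO against sham and 12.3% for R-UUO against UUO-7. Ranked from the largest increase down, miR-147-3p was the 2nd of the 457 loci at UUO-2 and the 37th at UUO-7. For R-UUO against sham it was the 13th. Since miR-147 was chosen by its levels after injury, these ranks are a description only. The summed leukocyte markers went the other way in the same libraries, from 34997 to 42060 CPM in sham Macs to 24208 to 29869 at UUO-2, 18265 to 21446 at UUO-7 and 14846 to 27758 at R-UUO. Taken singly (edgeR, FDR below 0.05, fold change above 1.5), the markers did not all fall. At UUO-2 miR-142a-3p and miR-223-5p were called higher than sham, at log2 differences of 0.74 and 0.73. There miR-142a-5p, at −0.40, and miR-223-3p, at 0.13, were not called. miR-142a-5p had an adjusted p of 0.0284 in edgeR's test and missed the call on fold change alone. At UUO-7 miR-223-5p was called higher, at 1.37, and miR-142a-5p and miR-142a-3p were called lower, at −0.93 and −0.78. miR-223-3p, at −0.58 with an adjusted p of 0.00484 in edgeR's test, missed the call on fold change alone. The part of these markers in the miR-147-3p levels was not tested.

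**Figure D1:**
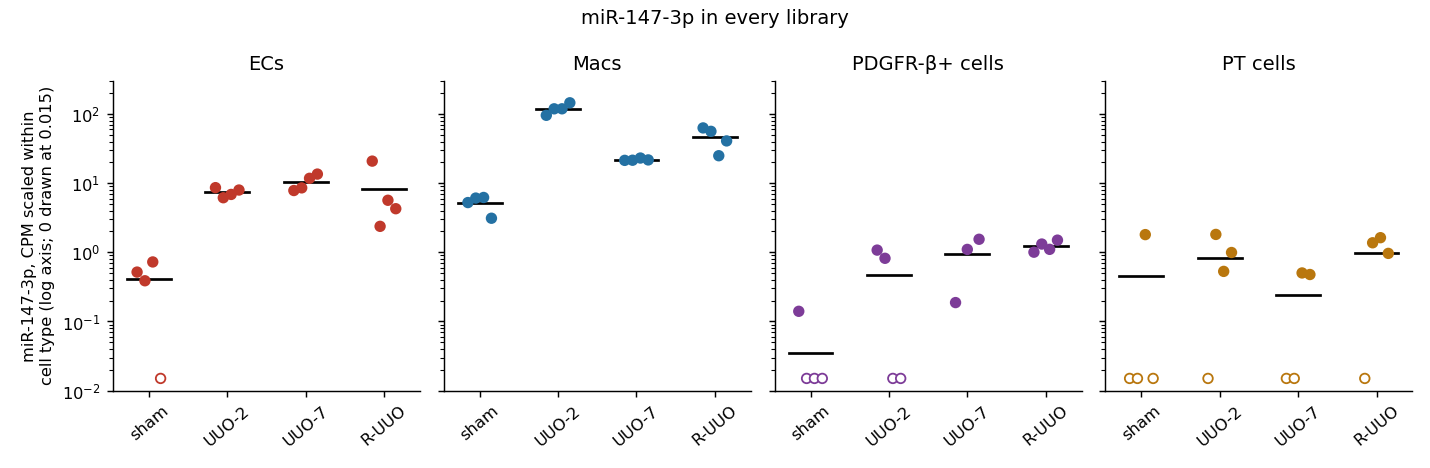
miR-147-3p in each library (points) and the group mean (bars), in CPM scaled within cell type on a log axis, by condition for each cell type. Open points are libraries with 0 counts. Mac libraries peak at UUO-2, all EC libraries after injury lie above the sham ECs, 1 R-UUO EC library stands at 20.8 CPM, and PT libraries hold at most 2 counts each.

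In ECs, miR-147-3p was close to the detection limit in sham kidneys and was counted in every library after obstruction. Sham ECs had 5, 4, 8 and 0 counts, or 0.518, 0.388, 0.726 and 0 CPM. The library with 0 counts allows a level of up to 0.406 CPM by library size, the level of 3 counts. At UUO-2 the ECs had 8.62, 6.16, 6.87 and 7.96 CPM from 28, 29, 49 and 23 counts. At UUO-7 they had 7.83, 8.55, 11.8 and 13.5 CPM from 41, 44, 89 and 127 counts. The ranges of UUO-2 and UUO-7 overlapped, unlike in Macs. The R-UUO libraries had 20.8, 2.38, 5.66 and 4.27 CPM from 183, 25, 15 and 39 counts. All 4 lay above sham, but replicate 1 alone lay above the UUO-7 libraries and the other 3 lay below them.

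ECs were higher than sham by 4.06 ± 0.68 at UUO-2, 4.57 ± 0.67 at UUO-7 and 4.25 ± 0.67 at R-UUO on the log2 scale. In each of these comparisons miR-147-3p was the 2nd largest increase among the 469 loci tested in ECs. It was chosen by these levels and passed the filter on low counts through the injured groups, so the rank is a description only. The share of those loci that were higher without overlap was 6.61%, 11.1% and 13.6%. R-UUO against UUO-7 was −0.32 ± 0.52, with overlapping groups, and replicate 1 decided that value. Without R-UUO replicate 1 the difference was −1.47, and R-UUO against sham was 3.08. The Mac library of the same mouse was also the highest of its group, at 62.9 CPM. The leukocyte markers summed to 126.7 CPM in the EC library of replicate 1, within the 89.3 to 131.8 CPM of the R-UUO ECs.

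Leukocyte markers were also higher in sorted ECs after obstruction, going from a median of 32.5 CPM (20.1 to 60.4) to 92.3 (58.7 to 124) at UUO-2, 168 (111 to 193) at UUO-7 and 113 (89.3 to 131.8) at R-UUO, in summed CPM scaled over all libraries. Of the 4 markers, miR-142a-5p passed edgeR's test at UUO-2, with a log2 difference of 1.46 and an adjusted p of 0.0173, and 3 passed it at UUO-7. miR-223-5p was too low to be tested and had 0 counts in 1 or more ECs of every condition but UUO-7. The level in ECs was therefore set against the Mac library of the same mouse. miR-147-3p in ECs was at a median of 20.5% of the Mac level in sham-operated mice and of 15.6% at UUO-2. That median was 123% at UUO-7 and 38.2% at R-UUO. For the 4 leukocyte markers the medians ranged from 0 to 0.0885% in sham-operated mice and from 0.216% to 0.341% at UUO-2. They ranged from 0.455% to 0.949% at UUO-7 and from 0.122% to 0.509% at R-UUO. The lowest UUO-7 EC library had miR-147-3p at 91.8% of its Mac library, while the highest value of a leukocyte marker in a UUO-7 EC library was 1.86%. Without TMM the miR-147-3p medians were 9.33%, 5.52%, 43.8% and 13.9%. Beyond these values, the part of leukocyte RNA in the EC level of miR-147-3p was not tested.

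**Figure D2:**
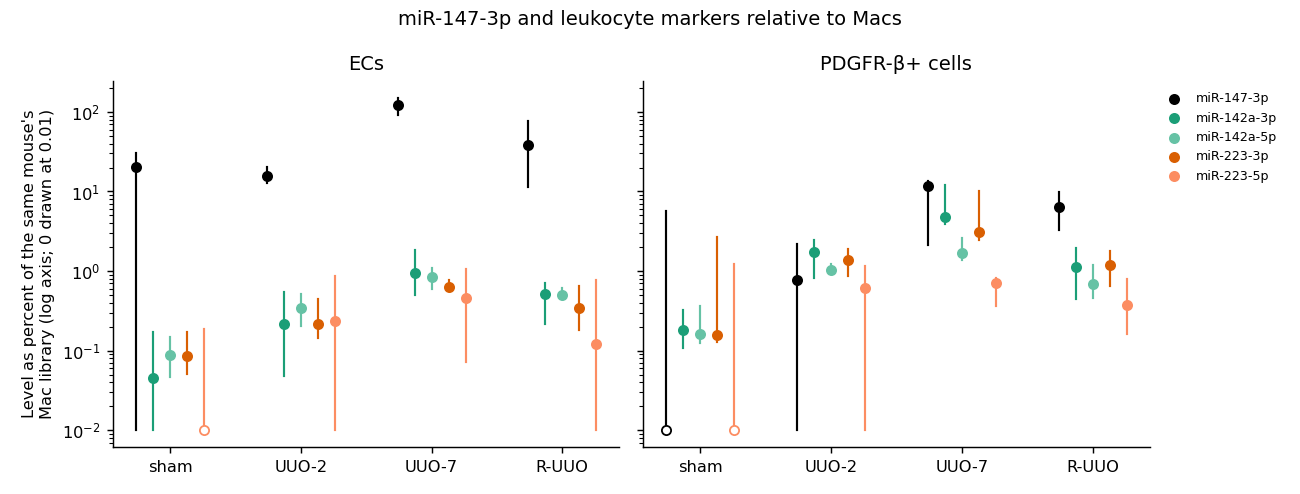
Level in ECs (left) and PDGFR-β+ cells (right) as a percent of the Mac library of the same mouse, on CPM scaled over all libraries and a log axis. Points are medians over mice, lines run from the lowest to the highest mouse, and open points are medians of 0. In ECs miR-147-3p lies far above all 4 leukocyte markers in every injured group, and in PDGFR-β+ cells it lies among them at UUO-2.

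In PDGFR-β+ cells miR-147-3p was rare and did not pass the filter on low counts, so that raw counts are given. Sham libraries had 1, 0, 0 and 0 counts, UUO-2 had 3, 5, 0 and 0, UUO-7 had 1, 5 and 4, and R-UUO had 5, 6, 10 and 7. In counts UUO-2 overlapped sham, UUO-7 met it at 1 count, and R-UUO lay above it. On scaled CPM the lowest UUO-7 library, at 0.188, was above the highest sham library, at 0.140, but each of those values is 1 count and under the limit of 3 counts. The share of the 477 loci tested in PDGFR-β+ cells that were higher than sham without overlap was 39.2% at UUO-7 and 23.9% at R-UUO. Pooled over libraries, 28 counts at R-UUO against 1 in sham gave a ratio of 24.9 with a 95% counting interval of 4.11 to 1017. The ratio was 19.4 (2.76 to 842) for UUO-7 against sham, 8.15 (1.09 to 361) for UUO-2 against sham and 1.28 (0.604 to 2.96) for R-UUO against UUO-7. These intervals cover counting error only. The ratios are by library size alone. On that scale the median log2 difference of all loci tested from sham was 0.12 at UUO-2, 1.02 at UUO-7 and 0.69 at R-UUO. For R-UUO against UUO-7 it was −0.28.

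R-UUO was the group of PDGFR-β+ cells in which miR-147-3p was counted most evenly, at 1.23 ± 0.222 CPM scaled within cell type (SD, n = 4). Relative to the Macs of the same mice it was at a median of 6.43% at R-UUO and 11.6% at UUO-7, beside 0.372% to 1.21% and 0.715% to 4.78% for the leukocyte markers. The summed markers in these cells were 53.0 to 171 CPM before injury and 284 to 331 at UUO-2. They were 275 to 699.9 CPM at UUO-7 and 122 to 207 at R-UUO. The markers were lower at R-UUO than at UUO-7, while miR-147-3p was not. In PT cells no library had more than 2 counts of miR-147-3p, with 2 counts over the sham group, 4 at UUO-2, 3 at UUO-7 and 4 at R-UUO. PT totals were as low as 616565, where 3 counts correspond to 4.87 CPM by library size, so a level such as that of the sham Macs would barely be seen in the shallowest of them. No fold was taken there.

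The cell types were set side by side in R-UUO as well, again as a description with no test. On CPM scaled over all libraries the Macs were highest at 28.4 ± 10.1, followed by ECs at 11.9 ± 11.7, PDGFR-β+ cells at 1.62 ± 0.284 and PT cells at 0.872 ± 0.620 (SD, n = 4 each). Macs exceeded PDGFR-β+ cells by a log2 difference of 4.12 ± 0.54 (SE) and ECs exceeded them by 2.88 ± 0.53. Without R-UUO replicate 1, the mouse with the high EC library, ECs exceeded PDGFR-β+ cells by 1.75. PT cells lay below Macs and ECs, and since they had at most 2 counts in a library no fold is given. Groups did not overlap in these 4 pairs. Over the 671 loci that passed the filter on low counts over all libraries, the higher cell type was higher without overlap at 20.7% for Macs and 10.9% for ECs against PDGFR-β+ cells, and at 19.4% for Macs and 23.1% for ECs against PT cells. The ranges of PT cells and PDGFR-β+ cells overlapped, and no fold is given for that pair either.

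ECs lay below Macs by a log2 difference of −1.24 ± 0.45 (SE) in R-UUO, and their ranges overlapped. The difference was −1.15 in a fit of the R-UUO libraries alone and −2.09 without replicate 1. Scaling moved this pair as well, to −2.51 by library size alone. That setting shifted the median of all loci by −1.26, and relative to that median the difference was −1.13 under both scalings.

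The order of the cell types was not the same in every condition. In sham and at UUO-2 the Macs were above the ECs without overlap, at 3.30 ± 0.819 against 0.657 ± 0.496 CPM and at 67.3 ± 8.51 against 10.7 ± 1.59 CPM scaled over all libraries (SD, n = 4 each). Of all loci, 25.2% in sham and 27.7% at UUO-2 were higher in Macs than in ECs without overlap. At UUO-7 the ECs had 15.8 ± 4.89 and the Macs 12.8 ± 0.969, and their ranges overlapped. By library size alone that order was turned, with 10.3 ± 2.52 CPM in ECs and 23.3 ± 1.24 in Macs. Which of the 2 cell types had more miR-147-3p at UUO-7 therefore rests on the scaling. ECs were above PDGFR-β+ and PT cells without overlap in all conditions but sham. The share of loci that did so at UUO-2 was 15.1% against PDGFR-β+ cells and 25.6% against PT cells, and at UUO-7 it was 15.9% and 24.3%. The ranges of PDGFR-β+ and PT cells overlapped in all 4 conditions.

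**Figure D3:**
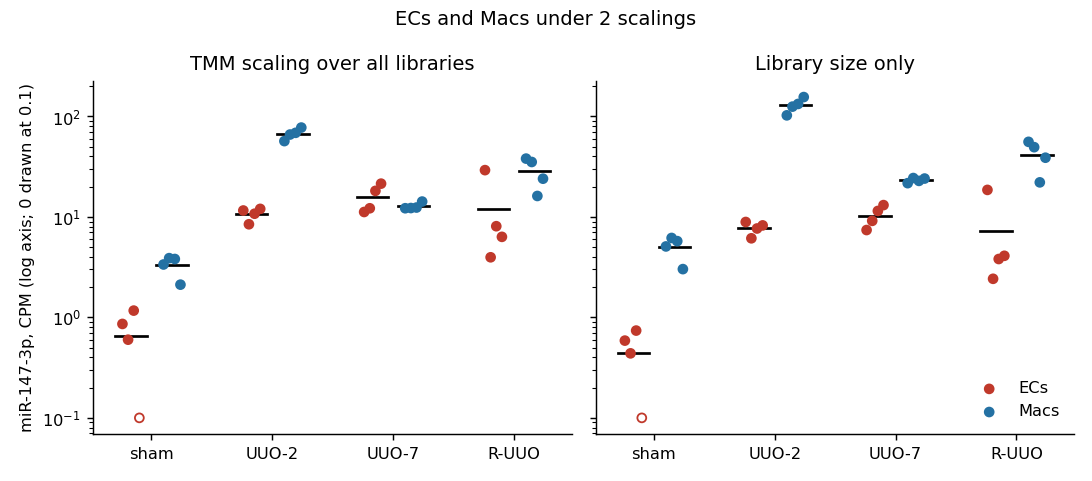
miR-147-3p in ECs and Macs by condition, in CPM scaled by TMM over all libraries (left) and in CPM by library size alone (right), on log axes. Points are libraries, bars are group means and open points are libraries with 0 counts. The 2 cell types overlap at UUO-7 on the left and are apart, with Macs higher, on the right.

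Nearly all miR-147 counts came from the 3p arm. Over all libraries there were 3656 counts on the 3p arm and 66 on the 5p arm, so that the 3p arm made up 98.2%. It made up 98% in Macs (exact Clopper-Pearson 95% interval 97.4% to 98.5%) and 99.0% in ECs (98% to 99.6%). The 5p arm passed the filter on low counts in no cell type and is given as counts. In Macs it had 0 counts in every sham library, 11, 8, 1 and 15 at UUO-2, 0, 1, 1 and 0 at UUO-7, and 8, 7, 5 and 2 at R-UUO. It was thus seen most in the groups where the 3p arm was highest, and UUO-2 replicate 3 had the most 3p counts, 613, but only 1 on the 5p arm. By group of Macs, the 3p arm held 98.3% of the counts at UUO-2, 99.1% at UUO-7 and 96.6% at R-UUO, and all 73 counts in sham. ECs had 7 counts of the 5p arm in all, at most 2 per library and none in sham. PT and PDGFR-β+ cells had none, beside 13 and 47 counts of the 3p arm.

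**Figure D4:**
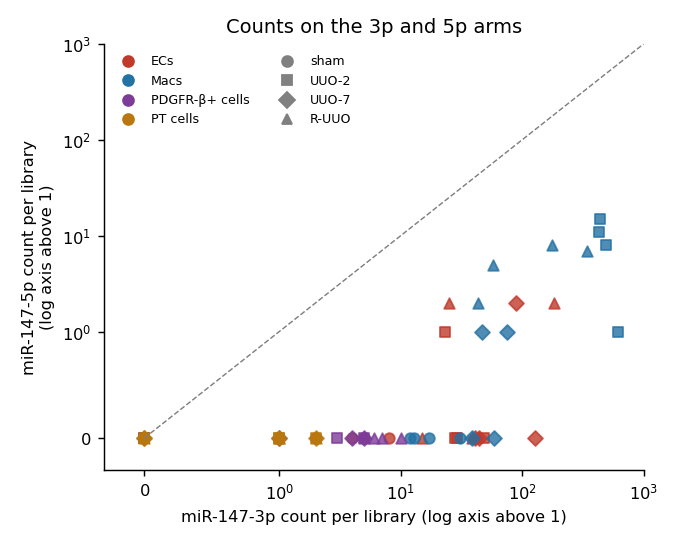
Counts of miR-147-5p against miR-147-3p in each library, on axes that are logarithmic above 1. Colour gives the cell type and marker shape the condition, and the dashed line marks equal counts. Every library with 5p counts lies far below the line, and the Macs at UUO-2 reach the highest counts on both arms.

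miR-147-3p was set beside 10 other miRNAs known to be induced in inflammation, counted at 12 loci. miR-155 promotes inflammatory signalling, miR-146a and miR-146b restrain Toll-like receptor signalling, miR-21a is widely induced in injury, and miR-132 and miR-212 come from one cluster. miR-9 and miR-187 respond to endotoxin in myeloid cells. A locus was called by edgeR at an FDR below 0.05 and a fold change above 1.5. In ECs 3 of 12 loci were called higher at UUO-2 and 7 at UUO-7, where 1.49% and 6.18% of all loci were called higher, and none was called lower, where 0.213% and 5.33% were. Without replicate 2 the count at UUO-7 was 4. In Macs 4 and 6 were called higher and 1 lower at both times, where 18.4% and 26.3% of all loci were called higher and 9.19% and 16.8% lower. In PDGFR-β+ cells 6 and 8 were called higher, beside 5.66% and 34% of all loci, and none and 1 were lower, beside 0.629% and 14.3%. In PT cells 10 loci were tested, of which 6 and 8 were called higher, beside 14.8% and 25.5%, and none and 1 were lower, beside 4.24% and 17.6%. Without replicate 2, 1 locus was called in PT cells at UUO-2 in place of 6. The lower locus at UUO-7 was miR-187-3p in both of these cell types. The median log2 difference of the list at UUO-7 was 0.80 in ECs, 1.05 in Macs, 2.39 in PDGFR-β+ cells and 1.85 in PT cells, and that of all loci was −0.05, 0.22, 0.50 and 0.00.

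The list did not move as one in Macs. miR-132-3p rose by 3.05 ± 0.33 and miR-212-3p by 3.72 ± 0.47 on the log2 scale at UUO-2, with adjusted p of 2.98e-06 and 1.55e-05 in edgeR's test. Both were still higher at UUO-7, by 3.63 and 4.30, the time at which miR-147-3p was lower than at UUO-2. miR-21a-3p rose by 1.92 at UUO-2 and 1.31 at UUO-7. miR-146a-5p, in contrast, fell by 1.11 at UUO-2, from 77887 ± 6060 to 35967 ± 5715 CPM (SD, n = 4), with an adjusted p of 0.000158, and was the locus called lower at UUO-7 as well. miR-155-5p in Macs differed from sham by 0.09 ± 0.29 at UUO-2, with an adjusted p of 0.834 in edgeR's test, and rose by 1.29 at UUO-7.

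In ECs miR-21a-3p rose by 3.04 ± 0.30 at UUO-2 and by 2.95 at UUO-7, from 5.61 ± 0.602 CPM in sham to 46.3 ± 15.7 and 43.4 ± 10.9 (SD, n = 4). miR-155-5p rose by 1.48 and 2.13. Of the UUO-2 and UUO-7 differences of the list in ECs, that of miR-155-3p at UUO-7 was the largest. It was 4.46 ± 1.35 (SE), at a level of only 0.968 ± 1.03 CPM (SD, n = 4). PDGFR-β+ cells had the largest changes of the list. The level of their miR-147-3p stayed low, at no more than 10 counts per library. Its pooled ratio to sham, by library size alone, was 19.4 at UUO-7 and 24.9 at R-UUO, with wide counting intervals. miR-155-3p had 0 counts in every sham library of these cells and is left aside. At UUO-7 miR-155-5p rose by 5.63, miR-21a-3p by 5.40, miR-146b-5p by 5.16 and miR-21a-5p by 4.97. The leukocyte markers miR-142a-3p, miR-142a-5p and miR-223-3p were called higher in the same comparison, by 4.25, 2.22 and 2.26. miR-223-5p was too low to be tested. The part of leukocyte RNA in these changes was not tested. In PT cells the 3 loci of miR-9-5p rose by 3.08 to 3.35 at UUO-7. These 3 loci have the same mature sequence, so their counts are not separate evidence. After reversal, R-UUO against UUO-7 gave no call on the list in ECs, Macs or PT cells and 1 in PDGFR-β+ cells, miR-146a-5p, which rose by 0.97 with an adjusted p of 0.0173 in edgeR's test. Among all loci, ECs had 0.853% called higher and 0.213% lower, and Macs had 12.7% and 7.22%. PT cells had 0.606% and 0.909%, and PDGFR-β+ cells had 3.14% and 0.839%. The absence of a call does not show that R-UUO and UUO-7 are equal. Against sham, 5 loci of the list in ECs, 7 in Macs, 8 in PDGFR-β+ cells and 7 in PT cells were called higher at R-UUO, beside 11.7%, 21.4%, 27.9% and 25.8% of all loci, and 1 locus in each cell type was lower, beside 5.12%, 10.5%, 13.8% and 13%. The lower locus was miR-146a-5p in Macs and miR-187-3p in the other 3 cell types.

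**Figure D5:**
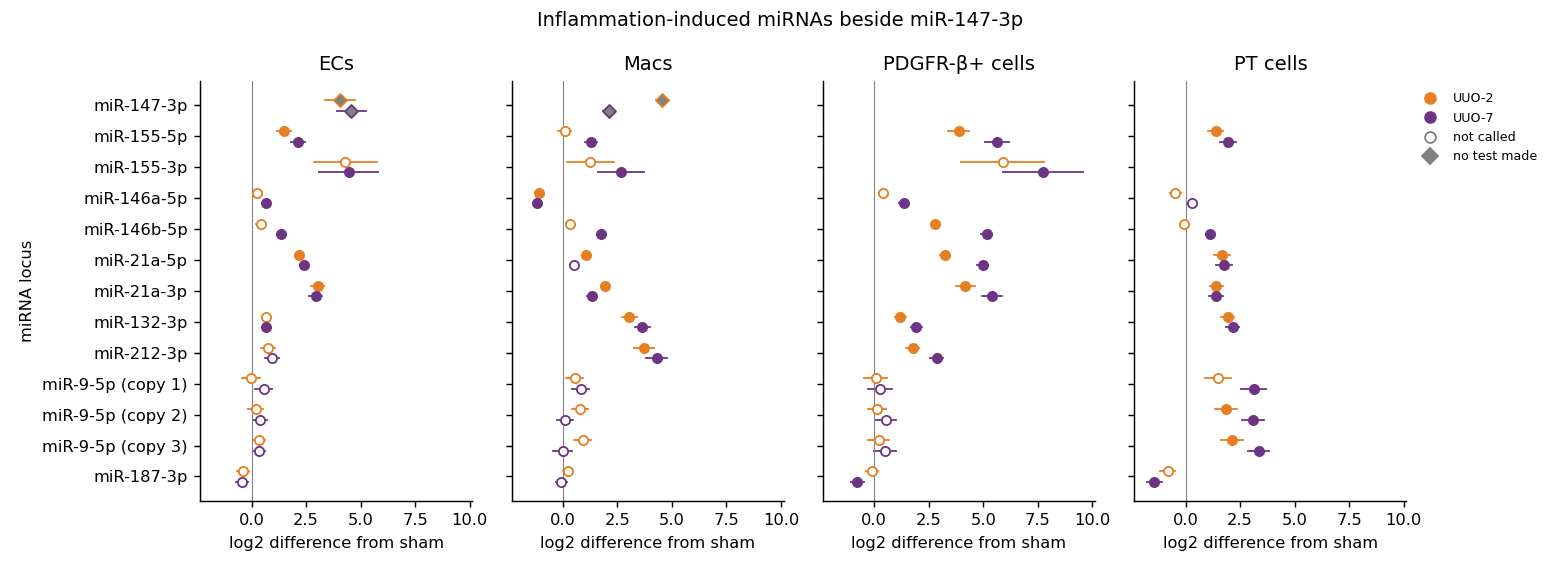
Log2 difference from sham at UUO-2 and UUO-7, with its standard error as a line, for the 12 loci of the list and for miR-147-3p (diamonds, no test made). Filled circles were called and open circles were not. miR-132-3p and miR-212-3p are furthest right of the list in Macs, miR-146a-5p lies left of 0 there, and the miR-155-3p value in PDGFR-β+ cells is a fit against sham libraries that all had 0 counts.

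Across the 63 libraries, the loci whose log2 CPM was most like that of miR-147-3p were miR-92a-1-5p with a Pearson r of 0.77, miR-146a-5p with 0.76, miR-130b-3p with 0.73, miR-18a-5p with 0.72 and miR-340-3p with 0.72. The median over the 670 loci compared was −0.08. These points share sort, mouse and depth, and the 5 loci were picked for their r, so the values are a description. Like miR-147-3p, miR-92a-1-5p was highest in Macs at UUO-2, at 96.1 ± 24.5 CPM scaled over all libraries (SD, n = 4), and was 44.7 ± 9.51 in sham Macs. When the sham mean of each cell type was subtracted first, the most alike were miR-144-3p with 0.61, miR-7a-5p with 0.51, miR-363-3p with 0.51, let-7f-1-3p with 0.50 and miR-148a-3p with 0.50. miR-144-3p had a mean of at most 1.75 CPM in any group, and its rank correlation with miR-147-3p was 0.39. miR-146a-5p, alike in level, had an r of −0.33 in change.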

How the data were processed

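Per the submitters' notes, reads were trimmed with Trim Galore 0.4.1 and Cutadapt 1.1. Alignment used ShortStack, which wraps Bowtie, against miRBase on the GRCm38 build, and the authors deposited raw counts per mature miRNA locus. Strand and multi-mapping settings are not given in the sources used here, no molecular identifiers are named, and 1 library the authors removed was not analysed here. In R 4.3.3, edgeR 4.0.16 fitted quasi-likelihood models after filterByExpr and TMM scaling, within a cell type for injury and over all 63 libraries in 16 groups for R-UUO cell types. Standard errors were taken from the F statistics. Tests, made for the list and the markers, were two-sided with Benjamini-Hochberg adjustment. CPM were computed from the counts, and log2 CPM after adding 2 CPM to each value. 1 unmapped value column of the table was not used. miR-147-3p passed the filter in ECs and Macs and over all libraries.

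The members and lists were chosen with earlier results of these data known. A test of miR-147-3p between cell types in R-UUO had been planned, but all conditions were known at that choice, so its p-values are not given. Named were the members, up to 5 list miRNAs per contrast by size among calls, marker miRNAs, seed-sharing and neighbouring miRNAs and the 5 loci most alike. miR-155-5p in Macs, miR-146a-5p in Macs at UUO-7 and in likeness by change, and miR-187-3p, were named after their values were seen. Alternatives were library size only, DESeq2 1.42.0, no filter, fewer libraries in the fit, a replicate block and leaving out each replicate. In the pairing check, deviations from group means correlated by 0.0569 on average between cell types of the same mouse. The means by pair and condition ran from −0.0899 to 0.154. The −0.0190 between other mice follows largely from the first value, since deviations from a group mean cancel out. The check therefore cannot settle the pairing. The code was tested on simulated data. Replicate libraries differed beyond sampling noise.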

Additional observations from a re-analysis of the deposited data

Results flagged for a closer look

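In the 15 groups of 4 libraries, each tested for 1 library that stands apart, chance would flag about 1 group in 20. No group's miR-147-3p level in CPM scaled within cell type was flagged where any library had more than 3 counts. The statement is limited to that scale, and it does not hold on CPM scaled over all libraries. On CPM scaled over all libraries, R-UUO EC replicate 1 had 29.2, the nearest library of its group 8.08 and the lowest 3.97. By the same rule that library stands apart. The summed leukocyte markers were flagged in Macs at UUO-7, where replicate 5 had 21446 CPM and the nearest library 18726. Its miR-147-3p level, 21.7 CPM scaled within cell type, lay within its group. On CPM scaled over all libraries that level was the highest of the group, at 14.2, and the nearest library had 12.4. With the lowest library at 12.2, it too stands apart by the same rule on that scale. They were also flagged in sham PDGFR-β+ cells, where replicate 3 had 171 CPM and the nearest library 68.6, and miR-147-3p had 0 counts in that library.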

How the results depend on the processing

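The directions in Macs and ECs against sham and the 3p share held under the alternatives that were run. The order of ECs and Macs at UUO-7 was turned by library size alone, with means of 10.3 and 23.3 CPM in place of 15.8 and 12.8. The block value for UUO-7 against sham in ECs, with replicate number as a block, was 4.94 in place of 4.57. The numbers are different mice across conditions, so this block has no pairing behind it. With the mouse as a block, where cell types of the same mouse are paired, the R-UUO difference of ECs from Macs was −1.45, and the direction held in all 6 pairs. With only R-UUO libraries it was −1.15. DESeq2 called 5 list loci in ECs at UUO-2 in place of 3. By Spearman correlation, 3 of the 5 loci most alike in level and 1 of 5 in change were shared. Leaving out 1 replicate at a time gave −2.09 to −1.07 for ECs against Macs in R-UUO, and for ECs gave 3.72 to 4.48 at UUO-2, 4.26 to 4.99 at UUO-7, −1.47 to −0.022 for R-UUO against UUO-7 and 3.08 to 4.67 for R-UUO against sham. List calls ranged from 4 to 7 in ECs at UUO-7 and from 1 to 6 in PT cells at UUO-2, lowest without replicate 2 in both. The causes were not tested. Depth limits PT cells most, where no library had more than 2 counts of miR-147-3p.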
